A study of Mus musculus with 3 samples.

Results

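BACH2 and JunD binding was examined at the genes of 4 transcription factors of resting T cells, Tcf7, Lef1, Ets1 and Satb1, in mouse induced regulatory T (iTreg) cells. The members are all peaks of the deposited BACH2 and JunD lists that share at least 1 bp with a fixed window of the mm9 assembly around each gene. The windows were chromosome 11 from 52030000 to 52140000 for Tcf7 (110 kb), chromosome 3 from 130770000 to 130970000 for Lef1 (200 kb), chromosome 9 from 32420000 to 32650000 for Ets1 (230 kb) and chromosome 17 from 51830000 to 52020000 for Satb1 (190 kb). They held 32 of the 14370 peaks of the series, 17 of 9133 for BACH2 and 15 of 5237 for JunD. The windows are fixed coordinates that use no peak values, although the members were chosen with earlier results of these data known.

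The series holds 1 BACH2 chromatin immunoprecipitation (ChIP) library, 1 JunD ChIP library and 1 input library. All came from wild-type C57BL/6 mice aged 8 to 12 weeks. CD4+ T cells of the spleen were sorted, then activated in culture for 4 days on plates carrying antibodies to CD3ε and CD28, with TGF-β, before crosslinking. The sort described in the protocol precedes the culture, and no sort for Foxp3, the regulatory T cell factor, is described. The lists hold binding sites and no gene expression, so the cell type could not be checked against marker genes. With 1 library per factor there is no replicate error, and no test between genes or factors was made.

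TCF-1, the product of Tcf7, and LEF-1 are related HMG-box proteins that bind DNA and, with β-catenin as a partner, act at the end of the Wnt pathway. Both are highly expressed in naive and memory T cells and are lowered as T cells turn into effector cells. ETS-1 is the founding member of the ETS family of transcription factors and is abundant in resting lymphocytes. SATB1 organises chromatin in thymocytes and is kept low in regulatory T cells. BACH2 is a repressor of the basic leucine zipper class that restrains effector programmes in T cells, and JunD is an AP-1 subunit of the same class. Both recognise AP-1-like DNA elements, so they may meet at the same sites.

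The strength of a BACH2 peak is given by 2 values of the authors, its fold enrichment over background and the −log10 of its q-value, a p-value adjusted for false discovery, which is larger for a more certain peak. JunD peaks carry a single score of unstated scale. Values of one list are not comparable with those of the other, so each peak also has a percentile in its own list, by −log10 q or score, with 100 for the strongest.

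The arrangement of the listed peaks of both factors varied from gene to gene, a description that rests on at most 7 BACH2 and 8 JunD peaks per gene. Ets1, the longest window, held the most peaks, 7 of BACH2 and 8 of JunD, and in 4 places they coincided. Tcf7 held 5 BACH2 and 3 JunD peaks with 2 coinciding, and it had the strongest BACH2 peaks of the set, which stood without JunD. Lef1 held 2 BACH2 and 4 JunD peaks, none of which touched. Satb1 held 3 BACH2 peaks and no JunD peak. The order of genes depended on the weaker peaks. In the strongest 50% of each list Ets1 kept 4 BACH2 and 5 JunD peaks, while Tcf7 kept all 5 and 3.

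Over the 4 windows a JunD peak overlapped 6 of 17 BACH2 peaks, or 35.3% (Wilson 95% interval 17.3 to 58.7), against 29.3% of all BACH2 peaks. A BACH2 peak overlapped 6 of 15 JunD peaks, or 40.0% (19.8 to 64.3), against 48.8% of all JunD peaks. Both intervals include the share of the whole list, so the overlap at these genes could not be told from that of the lists at this number of peaks. The intervals cover the counting of peaks alone. When 50% of both peaks had to be shared, 2 of the 6 pairs were left, 1 at each of Tcf7 and Ets1, which made 11.8% of BACH2 and 13.3% of JunD members against 15.3% and 26.6% of the lists. Without Ets1, 2 of 10 BACH2 and 2 of 7 JunD peaks were overlapped. Sites that coincided were present at Tcf7 and Ets1, while Lef1 and Satb1 had none. Lef1 and Satb1 held only 2 and 3 BACH2 peaks. The Wilson 95% intervals of their overlapped BACH2 shares reached up to 65.8% and 56.1%. Both intervals include the 29.3% of the whole list and overlap the intervals at Tcf7 and Ets1. The lack of coinciding BACH2 peaks at Lef1 and Satb1 is therefore a description and does not separate the genes.

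**Figure D1:**
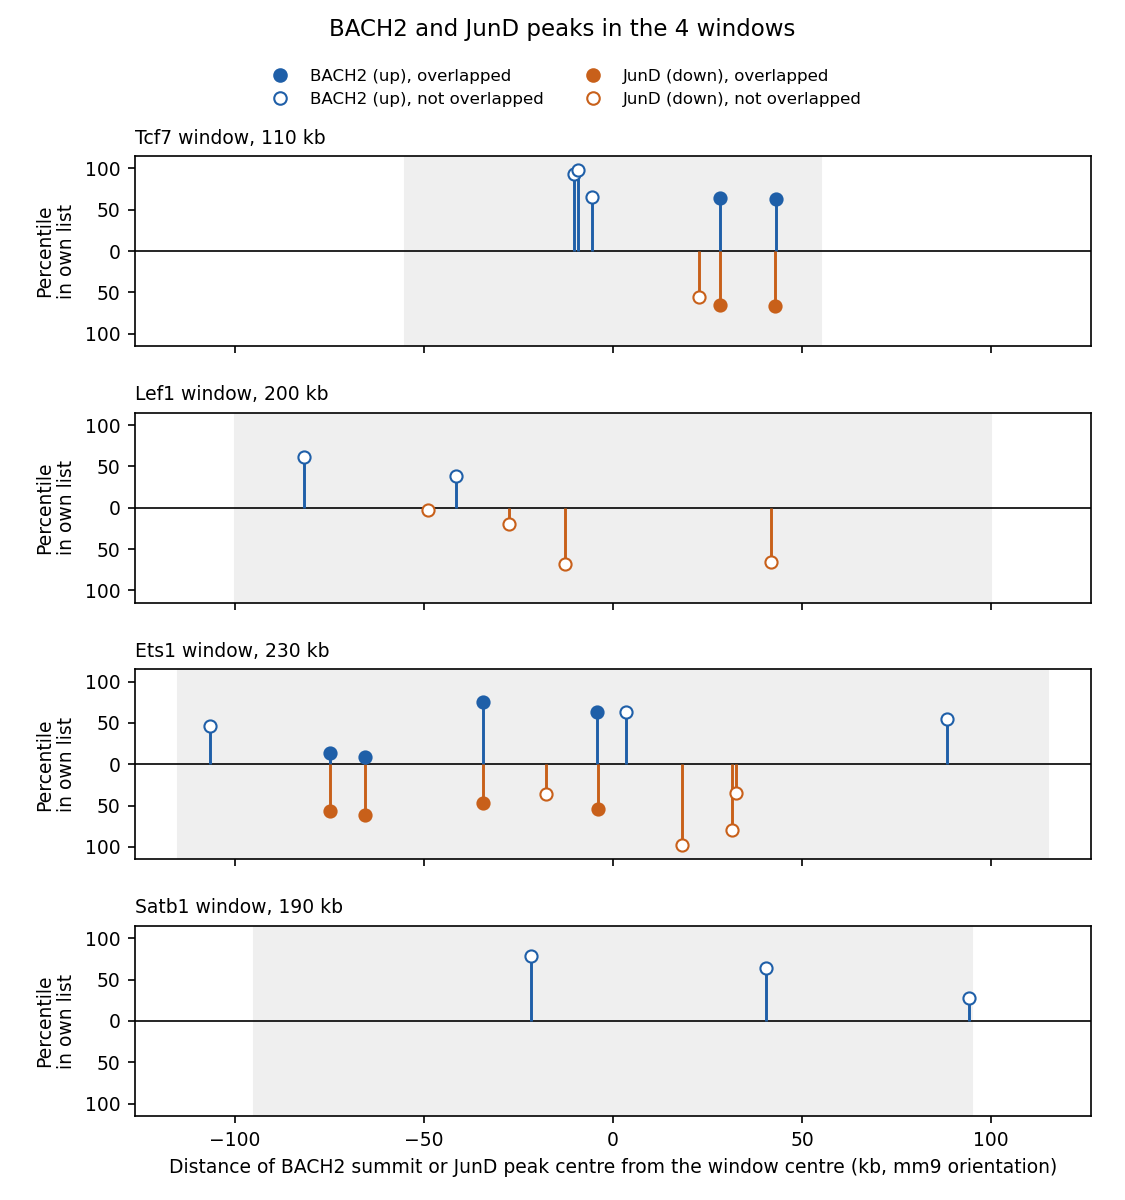
Position and strength of every peak in the 4 windows. The x axis gives the distance in kb from the window centre, BACH2 peaks point up and JunD peaks down, bar height is the percentile of the peak in its own list (100 is the strongest), filled circles are peaks overlapped by the other factor, and grey marks the extent of each window. The 6 overlapping pairs lie in the Tcf7 and Ets1 windows, and the Satb1 window has bars on the BACH2 side only.

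Tcf7 was divided into a stretch with BACH2 alone and a stretch with both factors. The first 3 BACH2 peaks lay within 5.11 kb, between 52074287 and 52079396 on chromosome 11, and the nearest JunD centre was 28.5 to 33.2 kb away from their summits. The peak at 52075383 to 52075871 was the strongest of all 17, with an enrichment of 15.2-fold and a −log10 q of 119.8, rank 157 of 9133. Its neighbour at 52074287 to 52074751 had the higher fold, 17.6, and a −log10 q of 63.6, rank 627. These were the only BACH2 members in the strongest 20% of the list, and fold and −log10 q put them in opposite order.

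The summits of these strong Tcf7 peaks were 1.07 kb apart. Strong BACH2 peaks this close were rare. In the strongest 20% of the list, 1.53% of the peaks had another one of that class at the same distance or less. The distance was taken from this pair after it was seen, so the share is a description. The absence of JunD was ordinary for peaks of this strength: of the BACH2 peaks with a −log10 q at least as high as the weaker of the pair, 49.2% had no JunD peak. The third of the group, at 52079146 to 52079396, was much weaker, with a fold of 6.02 and a −log10 q of 17.4.

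The other part of the Tcf7 window began with a JunD peak at 52107581 to 52107922, with a score of 88.7, which no BACH2 peak touched. BACH2 at 52113181 to 52113405 (6.33-fold, −log10 q 17.01) then lay inside the JunD peak at 52112972 to 52113665, with a score of 103.2. The last pair joined a BACH2 peak at 52127770 to 52128197 (4.92-fold, −log10 q 16.3) to a JunD peak at 52127458 to 52128175 with a score of 105.7. At Tcf7, then, the BACH2 peaks that met JunD were the weakest of the 5 by −log10 q, at percentiles 64.7 and 62.9. The third BACH2 peak, without JunD, was only just above them at percentile 65.1. By fold the peaks that met JunD stood at percentiles 58.6 and 35.3, with the third peak between them at 54.7. The last peak was thus below the list's median by fold. The 3 JunD peaks were all above the median of their list, at percentiles 55.9, 64.8 and 66.9.

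At Lef1 the factors were close neighbours at most. The BACH2 peaks, at 130788215 to 130788433 (7.75-fold, −log10 q 15.8) and 130828440 to 130828691 (5.22-fold, −log10 q 9.25) on chromosome 3, were of middle strength, at percentiles 61.6 and 38.4. The JunD peaks fell into 2 weak and 2 stronger ones. Those at 130820758 to 130821170 and 130842256 to 130842677 scored 51.3 and 58.9, the first close to the lowest score in the list, 50. Those at 130856817 to 130857849 and 130911384 to 130911960 scored 107.1 and 103.9, at percentiles 67.7 and 65.6.

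The smallest distance at Lef1 between a BACH2 summit and a JunD centre was 7.57 kb, and the largest distance from a JunD centre to its nearest BACH2 summit was 83.1 kb. Lef1 was the window with more JunD than BACH2 peaks by the largest ratio, 4 to 2. To set this beside the genome, chromosomes were divided into consecutive tiles of each window's length. Of 305 tiles of 200 kb with at least 2 BACH2 and at least 4 JunD peaks, 8, or 2.62%, had no BACH2 peak overlapped by JunD. These tiles include ones with more peaks than Lef1, which give more occasions for overlap. The share is thus not that of tiles with the same counts as Lef1. That criterion was set after the Lef1 peaks were seen and is a description.

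Ets1 carried a chain of sites along most of its window. From 32459814 to 32531166 on chromosome 9, 4 of the 5 JunD peaks coincided with BACH2 peaks. The first of these BACH2 peaks, at 32459836 to 32460070, had a fold of 4.51 and a −log10 q of 5.26, and met a JunD peak of score 88.8. The second, at 32469320 to 32469511, had a fold of 3.01 and a −log10 q of 4.43, and met a JunD peak of score 97.3. These were the weakest BACH2 members of all 17 (percentiles 14.1 and 8.72), yet their summits were the closest of all to a JunD centre, at 1 and 10 bp. Among all BACH2 peaks with a −log10 q no higher than 5.26, a JunD peak overlapped 23.7%.

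The next BACH2 sites of Ets1 were stronger. The peak at 32500550 to 32500784 (8.35-fold, −log10 q 23.6, percentile 74.8) was the strongest BACH2 peak of this gene and met a JunD peak of score 78.9, the lowest score among the 4 coinciding JunD peaks there. The peak at 32530677 to 32530915 (5.75-fold, −log10 q 16.2) met a JunD peak of score 86.4. Between them, a JunD peak at 32517037 to 32517577 with a score of 69.7 stood alone. Over the 4 pairs at Ets1 the order of JunD scores was the reverse of the order of BACH2 −log10 q, and the pairs at Tcf7 were reversed likewise, although 4 and 2 pairs allow no more than a description.

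Both factors also had separate peaks in the Ets1 window. BACH2 peaks without JunD lay at 32428199 to 32428398 (−log10 q 10.9), 32538315 to 32538531 (−log10 q 16.3) and 32623176 to 32623382 (−log10 q 13.3), with folds of 5.62, 6.74 and 6.37. JunD peaks without BACH2 formed a run of 3 over 15.3 kb, from 32552481 to 32567796, whose nearest BACH2 summit was 14.7 kb away. The first of the run, at 32552481 to 32553895, scored 428.5 and ranked 104 of 5237, and was the only JunD member in the strongest 20% of its list. The others, at 32565709 to 32566929 and 32567054 to 32567796, scored 141.4 and 67.9 and were separated by 124 bp.

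The strongest JunD site of the set thus stood without BACH2. That was uncommon among JunD peaks this strong. Of the 104 JunD peaks with at least this score, 16.3% had no BACH2 peak, against 2680 of all 5237 JunD peaks. The cut was this peak's own score, taken after it was seen, so the share is a description. The strongest BACH2 peaks, at Tcf7, likewise lacked JunD. Among BACH2 peaks at least as strong as the weaker of these, the share without JunD was 49.2%, against 6459 of all 9133. The strongest site of each factor at these genes was therefore at a different gene and without the other factor.

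Satb1 had BACH2 peaks alone. They lay at 51903046 to 51903318 (7.15-fold, −log10 q 27.6), 51965306 to 51965532 (6.74-fold, −log10 q 16.8) and 52019239 to 52019429 (3.89-fold, −log10 q 7.37) on chromosome 17. The first was the strongest BACH2 member outside Tcf7, at percentile 78.6, and the last was weak, at percentile 27.9, and lay within 1 kb of the window's end. Neighbouring summits were 62.2 and 53.9 kb apart, while gaps between BACH2 summits ran from 1.07 to 34.1 kb at Tcf7 and from 7.64 to 84.8 kb at Ets1, and the one at Lef1 was 40.2 kb.

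JunD was listed nowhere near Satb1. The BACH2 summits were 301, 239 and 185 kb from the nearest JunD centre, and 15.9% of all BACH2 peaks were at least as far from JunD as the nearest of these. The window lay in a stretch of 1493 kb between consecutive JunD peaks, from 50710474 to 52203956, which 8 BACH2 peaks reached into. Of the 5217 gaps between neighbouring JunD peaks, 8.41% were as long or longer, and the median gap was 77.7 kb. Each gap counts once here whatever its length. The share of the genome that lies in gaps this long is therefore larger, and it was not computed. Among tiles of 190 kb with 3 or more BACH2 peaks, 16.4% held no JunD peak, and these tiles include ones with more BACH2 peaks than Satb1. A list of peaks above a threshold does not show whether weaker JunD binding was present at Satb1.

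In the 6 pairs the BACH2 summit lay 1, 10, 15, 47, 67 and 190 bp from the JunD centre, a median of 31 bp, with an interval from 1 to 190 bp that includes the 55 bp of all 2677 overlapping pairs of the lists. In 5 of the 6 the BACH2 peak lay wholly inside the JunD peak, compared with 78.8% of all overlapping pairs. The exception was the last Tcf7 pair, where 94.9% of the BACH2 peak was covered and the summit lay farthest out, at 190 bp. JunD peaks were wider, at 363 to 718 bp against 192 to 428 bp for BACH2 in these pairs. The same held for the whole lists, with median widths of 553 bp for JunD and 267 bp for BACH2.

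**Figure D2:**
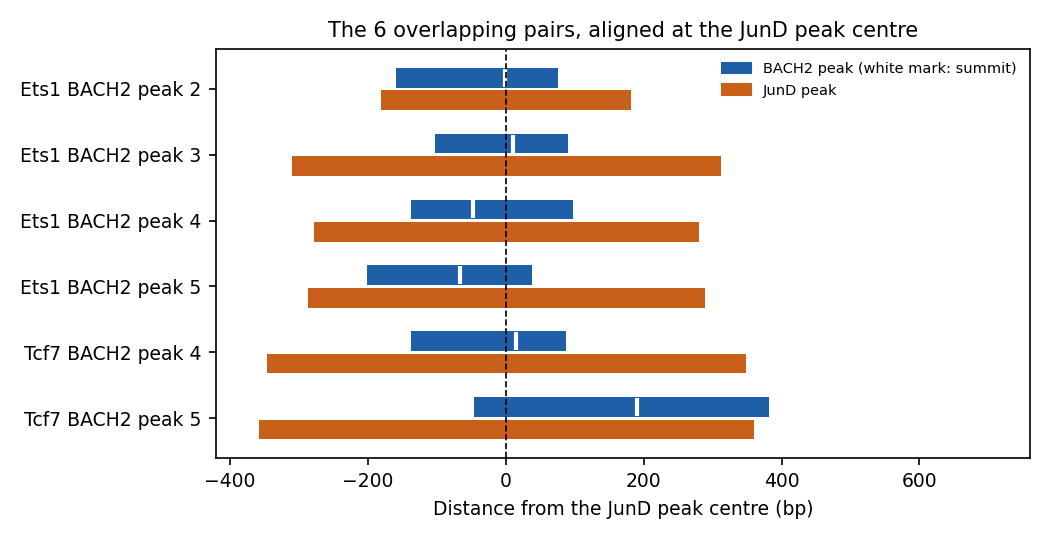
The 6 overlapping pairs, each drawn around the centre of its JunD peak, with the distance in bp on the x axis. Blue bars are BACH2 peaks with the summit marked in white, and orange bars are JunD peaks. Summits lie within 67 bp of the JunD centre in 5 pairs and 190 bp away in the last Tcf7 pair.

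Strength was compared between members that met the other factor and members that did not. The 6 BACH2 peaks that met JunD had a median −log10 q of 16.2 (4.43 to 23.6), and the 11 others a median of 16.3 (7.37 to 119.8). In the full list these medians were 15.7 and 10.9. The 6 JunD peaks that met BACH2 had a median score of 93.0 (78.9 to 105.7), against 88.7 (51.3 to 428.5) for the 9 others. The corresponding medians of the full list were 96.9 and 72.7. The ranges overlapped widely for both factors, and the coinciding JunD peaks were all of middle strength, at percentiles from 47.0 to 66.9.

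As a set, the BACH2 members had a median −log10 q of 16.3, against 11.8 for the whole list, and 12 of 17 were above the list's median. Their median fold was 6.33 against 5.75. The median percentile was 62.9 by −log10 q, with an interval from 46.1 to 65.1 that includes 50, the median of the list. For JunD the median score was 88.8 against 81.6, and 10 of 15 peaks were above the list's median, at a median percentile of 56.0 (36.4 to 66.9). At this number of peaks, the typical strength of either set could not be told from that of its list.

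By gene, median −log10 q was 17.4 at Tcf7, 16.8 at Satb1, 13.3 at Ets1 and 12.5 at Lef1. The ranges of neighbouring genes in that order overlapped, because Tcf7 reached down to 16.3, Satb1 ran from 7.37 to 27.6, Ets1 from 4.43 to 23.6 and Lef1 from 9.25 to 15.8. Tcf7 and Lef1 were the only genes whose ranges did not overlap. All 5 Tcf7 peaks were above the median of the list, as were 2 of 3 at Satb1, 4 of 7 at Ets1 and 1 of 2 at Lef1. Median JunD scores were 103 at Tcf7, 87.6 at Ets1 and 81.4 at Lef1, and the ranges of all 3 overlapped.

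**Figure D3:**
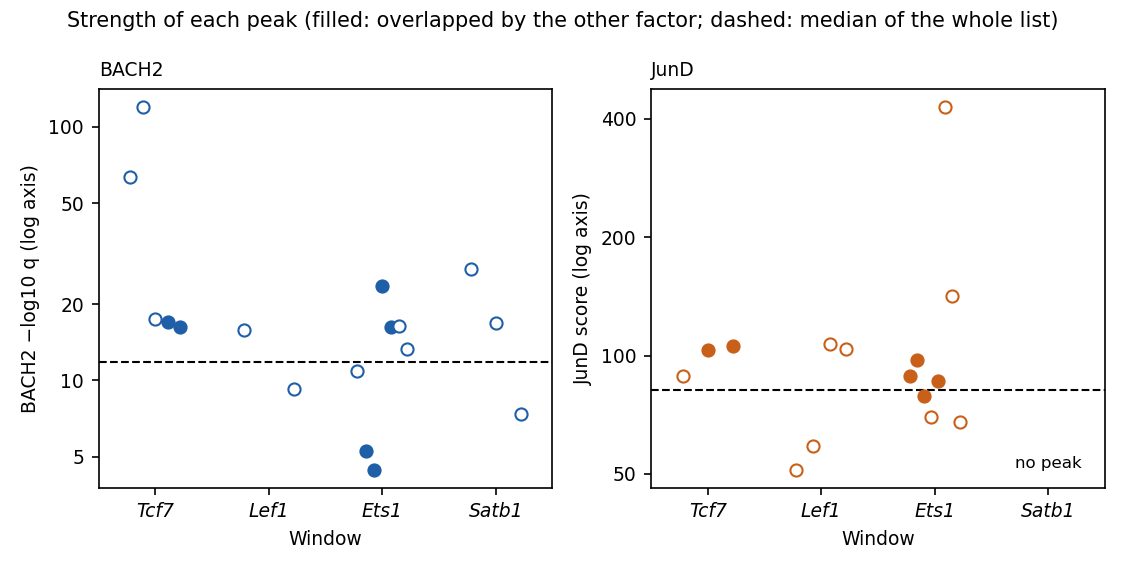
Strength of each member by gene, on log axes, as the authors' −log10 q for BACH2 (left) and score for JunD (right). Each circle is 1 peak, filled where the other factor overlaps it, in order of position within a window, and the dashed line is the median of the whole list. The Tcf7 pair at 63.6 and 119.8 and the Ets1 JunD peak at 428.5 stand above the rest without overlap.

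All windows held BACH2 more densely than the genome as a whole. The density was 45.5 BACH2 peaks per Mb at Tcf7, 30.4 at Ets1, 15.8 at Satb1 and 10 at Lef1, against 3.47 over the 2628 Mb that the lists span. JunD reached 34.8 peaks per Mb at Ets1, 27.3 at Tcf7 and 20 at Lef1, against 1.99 over the whole span. Much of a genome holds no peak of either factor, so the surroundings are the closer comparison. In 500 kb on each side, BACH2 had 8 peaks per Mb around Tcf7, 23 around Ets1, 10 around Satb1 and 3 around Lef1.

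Ets1 thus had the surroundings richest in BACH2 peaks, and the contrast at Lef1 rests on 2 BACH2 peaks in the window. For JunD the surroundings had 8 peaks per Mb around Tcf7, 2 around Lef1, 13 around Ets1 and 5 around Satb1, where all 5 lay on the side of higher coordinates. RefSeq (GRCm38.p6) lists Skp1 and Vdac1 as the protein-coding neighbours of Tcf7, Rpl34 and Hadh for Lef1, Fli1 and Kirrel3 for Ets1, and Tbc1d5 and Kcnh8 for Satb1. Which of these reach into the windows was not determined, because no mm9 gene positions were used, and for the same reason peaks are not described as promoter, intron or intergenic peaks.

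**Figure D4:**
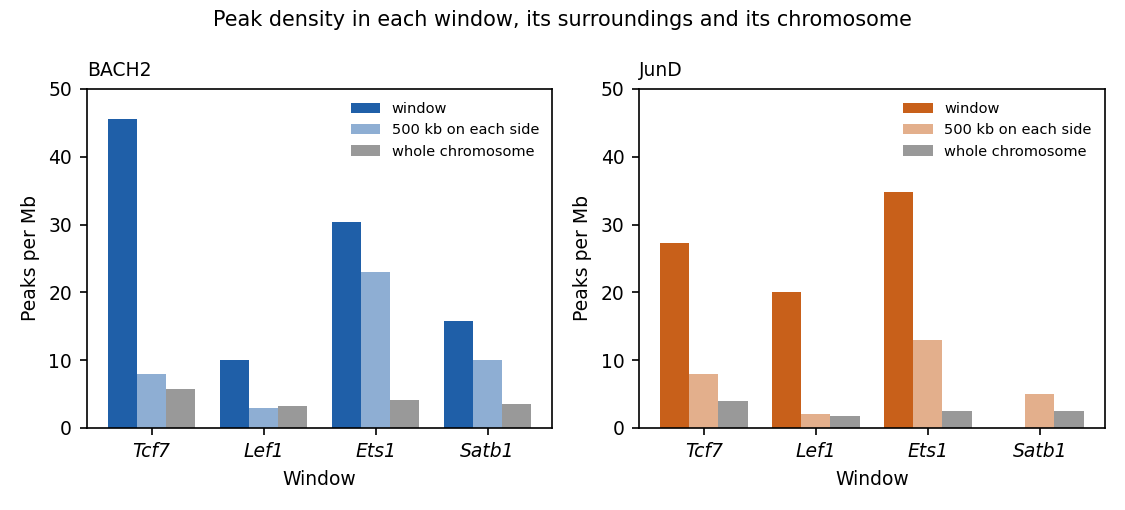
Number of BACH2 (left) and JunD (right) peaks per Mb in each window, in the 500 kb on each side of it, and on its whole chromosome up to the last peak. BACH2 density at Tcf7 is 45.5 against 8 beside it and at Ets1 30.4 against 23, and JunD has no bar for the Satb1 window.

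Tiles of the same length placed these counts in the genome. At least 5 BACH2 peaks, as at Tcf7, were held by 1.43% of tiles of 110 kb, and at least 3 JunD peaks by 2.06%, while 0.837% held as many of each. For Ets1, 1.98% of tiles of 230 kb held 7 or more BACH2 peaks, 0.438% held 8 or more JunD peaks, and 0.35% held both. For Lef1, 15.5% of tiles of 200 kb held 2 or more BACH2 peaks and 2.47% held 4 or more JunD peaks. For Satb1, 8.95% of tiles of 190 kb held 3 or more BACH2 peaks. Most tiles hold no peak at all, and among tiles with at least 1 peak of either list the shares were higher, at 6.42% and 9.26% for BACH2 and JunD at Tcf7, 5.87% and 1.3% at Ets1, 49.5% and 7.91% at Lef1, and 29.7% for BACH2 at Satb1. Ets1 had the smallest JunD share of the 3 genes with JunD in both counts, while the order of Tcf7 and Ets1 for BACH2, and of Tcf7 and Lef1 for JunD, turned between them. The tiles differ in genes and in how well reads align to them, and these shares are not tests.

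The nearest peaks outside the windows lay at very different distances. The nearest BACH2 peak after the Satb1 window, at 52203894 to 52204374, was strong (9.91-fold, −log10 q 49.0) and met a JunD peak of score 96.3, 184 kb past the edge. Before the Satb1 window, the nearest BACH2 peak (−log10 q 12.3) was 307.8 kb away and the nearest JunD peak (score 60.8) 1120 kb away. Past Lef1, the next peak of either factor came after 1564 kb. Before Lef1, a JunD peak of score 98.7 lay 46.8 kb from the edge and a BACH2 peak of −log10 q 2.65 lay 129.8 kb from it. At Tcf7 a JunD peak of score 114.8 lay 9.41 kb past the edge and a BACH2 peak of −log10 q 7.13, overlapped by JunD, lay 14.5 kb past it, while on the other side the nearest peaks were 116.6 kb (BACH2) and 169.6 kb (JunD) away. At Ets1 the nearest BACH2 peaks outside were 78.1 kb before (−log10 q 38.9) and 67.9 kb after (−log10 q 17.7), and JunD overlapped both. The nearest JunD peaks there were 70.75 kb before (score 82.4, without BACH2) and 67.71 kb after (score 114.1, overlapped by BACH2).

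Within the windows, neighbouring sites of either factor at most 10 kb apart formed 3 groups at Tcf7, 5 at Lef1, 8 at Ets1 and 3 at Satb1. All 3 groups at Tcf7 held at least 2 peaks, and all 3 at Satb1 were single peaks. Ets1 had 4 groups of 2 or more peaks and 4 single peaks, and Lef1 had 1 and 4. These counts depend on the joining distance. At 20 kb they were 2 at Tcf7, 3 at Lef1, 4 at Ets1 and 3 at Satb1, and at 5 kb they were 4, 6, 10 and 3.

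The promoter letters of the genes were searched for the AP-1 element TGACTCA and its reverse complement TGAGTCA in windows of 300 bp at RefSeq gene starts (GRCm38.p6). The table holds 2 such windows for Tcf7, 4 for Lef1 and 5 for Satb1, and Ets1 was not matched. None of the 11 held the element, which was present in 5.2% of all 32851 windows in the table. These windows could not be placed beside the mm9 peaks, and the letters of the peaks themselves were not used here.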

How the data were processed

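ChIP-seq peak lists of BACH2 and JunD, 1 library each, were analysed; the input library was not used here. The submitters' processing notes name Bowtie 0.12.9 and the mm9 (NCBIM37) build. How peaks were called, and against which control, is not given in the sources used here. The BACH2 list the authors deposited gives each peak a fold enrichment ratio, a −log10 p and a −log10 q, as read from the narrowPeak layout, and a summit. The JunD list the authors deposited gives each peak a single score of unstated scale, with a lowest value of 50. These values ranked peaks within their own list only. Read depth is unknown.

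The members and lists were chosen with earlier results of these data known. A peak belonged to a window, or overlapped another peak, from 1 bp on. Every peak of the windows is given, as the rule for named sites asked, along with the nearest peaks outside. Coordinates count from 1. JunD peaks have no summit, so their centre was used. Percentiles run to 100 for the strongest peak. Tiles ran from the first base of each of the 19 autosomes and the X chromosome to the last peak. Shares have Wilson 95% intervals, and medians have binomial order-statistic intervals; both treat peaks as independent. Interval functions were tested on simulated data. Peaks at gene starts, motifs in peaks and other resting T cell regulators, for which an mm9 genome is needed, were not analysed here. Python 3.11.15, numpy 2.4.6, pandas 2.3.3, scipy 1.17.1 and matplotlib 3.10.9 were used.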

Additional observations from a re-analysis of the deposited data

How the results depend on the processing

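Of 119 recalculated values, 100 stayed inside the interval of the main value or, for counts, within 1.5 times of it. Of those that moved, 15 belonged to a single window and 4 to the whole set. The intervals are wide and most settings recount the same peaks, so this tally says little about stability. Requiring 50% of both peaks lowered the overlapped share to 11.8% for BACH2 and 13.3% for JunD, leaving 2 of the 6 pairs, against 15.3% and 26.6% of the whole lists. The other overlap rules, widths, thresholds and window edges gave 25% to 38.9% for BACH2 and 30.0% to 40.0% for JunD. The whole lists moved with the rule too. Their BACH2 and JunD shares were 22.3% and 38.3% for the strongest 50% of each list. They were 20.5% and 35.8% with the summit at most 100 bp from the centre, and 32.8% and 52.1% with a gap of at most 1 kb. Ets1 held much of the set: without it 10 BACH2 and 7 JunD peaks were left, and the overlapped shares were 20% and 28.6%. Without Lef1 the JunD share was 54.5%, above the 48.8% of the whole list. Keeping the strongest 50% of each list left 12 BACH2 and 10 JunD peaks. Of these, 1 and 2 were at Lef1, 4 and 5 at Ets1, and 5 and 3 at Tcf7. Counting peaks at most 1 kb apart as 1 left 4 BACH2 peaks at Tcf7 and 7 JunD peaks at Ets1. Narrowing the windows by 20 kb on each side left 13 and 14, with 1 BACH2 peak at Lef1. Extending them by 50 kb gave 18 and 18, with 5 JunD peaks at Tcf7. Among tiles that held any peak, tiles with as many peaks as a window were more frequent, at 6.42% for Tcf7 BACH2, 5.87% for Ets1 BACH2 and 1.3% for Ets1 JunD. No paired analysis was possible because there was a single library per factor. Weaker sites that missed a caller's threshold are not listed, and no depth is given from which that limit could be judged.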
